A study of Mus musculus with 21 samples.

Results

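Silica and bleomycin are both used to start lung fibrosis in mice, and their early effects on lung fibroblasts were compared here at day 7. The comparison used 3 silica (SiO2) libraries and 3 bleomycin (BLM) libraries, selected by their titles, which are 6 of the 21 libraries of the series, and it covered all 23204 deposited gene symbols. All mice were female C57BL/6 animals with a Col1a2-GFP transgene, and their age was not stated. Each treated mouse received a single oropharyngeal dose in 50 µL of saline, either crystalline silica at 400 mg/kg or bleomycin at 2 mg/kg, so that agent and dose differ together between the groups. Untreated mice of the same genotype formed a further group of 3 libraries, and the same agents were followed to day 14 and day 63. The series describes the bleomycin model as reversible and the silica model as progressive.

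Each library came from 10000 sorted cells that carried the green fluorescent protein and lacked CD45, CD31, EpCAM, CD146 and Ter119, the surface proteins of leukocytes, endothelium, epithelium, vascular wall cells and erythroid cells. Fluorescence was driven by the promoter of Col1a2, so the cells were selected for activity of a collagen gene promoter, and cells of the lung mesenchyme with little such activity were not sampled. Tags from the 3′ ends of polyadenylated RNA were counted (3′SAGE-seq), and levels are given as CPM, the count of a gene scaled to a fixed library total, after TMM scaling. A tag count depends little on transcript length, but levels of different genes were not compared. Nothing in the labels stated that the 3 libraries of a group came from separate mice, and p-values therefore measure the spread between these samples, which may be technical.

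Fibroblasts of the lung include alveolar cells that support the epithelium, often marked by Npnt, Itga8, Inmt and Tcf21, and adventitial cells around airways and vessels, marked by Pi16, Cd34 and Dpt. After injury, part of this population turns to the production of fibrillar collagen and of contractile and matricellular proteins. Fibroblasts also secrete chemokines and acute-phase proteins that act on leukocytes, and they shift towards glycolysis when oxygen is scarce or growth signals are strong. Bleomycin breaks DNA, and silica crystals persist in the lung and damage the lysosomes of cells that engulf them.

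Total counts in the 6 libraries ran from 3180208 to 4159193, and 11669 genes with 99.68% of all counts were tested. For the labelled cell type, 12 fibroblast markers summed to 38216 to 40260 CPM in the bleomycin libraries and 41704 to 45108 CPM in the silica libraries. They include Col1a2, whose promoter drove the sort, so the sum is no independent check of the cell type. In silica 6 of the 12 were higher and 1 was lower than in bleomycin. Another of the 12 markers, Pdgfra, the receptor that marks lung fibroblasts, had 83.9, 90.1 and 93.5 CPM in the bleomycin libraries and 93.3, 83.7 and 88.1 CPM in the silica libraries. Of 12 lymphocyte markers in the files, only the T and B cell genes Cd3e, Cd79a and Cd79b had 0 counts in all 6. Of 11 endothelial markers, only Pecam1, Cdh5, Vwf and Cldn5 did. The 6 endothelial markers tested summed to 43.8 to 54.3 CPM in bleomycin and 21.5 to 36.9 CPM in silica, and 2 were lower in silica. The 2 lymphocyte markers tested summed to 33.0 to 54.8 CPM in bleomycin, 30.1 to 72.7 CPM in silica and 4.92 to 10.3 CPM in untreated libraries. Neither was called. The summed level of the 6 myeloid markers tested was at most 42.8 CPM and that of the 4 epithelial markers tested at most 55.7 CPM. Markers with too few counts to be tested are not in these sums. 1 library stood apart from its group. On the first principal component of all 21 libraries, which held 54% of the variance, bleomycin replicate 1 lay at -5.82, nearer to the untreated libraries (36.0 to 38.1) than replicates 2 and 3 (-17.3 and -14.1), and the silica libraries lay between -34.5 and -28.2. Calls lost or gained without bleomycin replicate 1 are given both ways for the 99 genes followed over the alternatives described below.

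Silica and bleomycin fibroblasts differed in 1212 of the 11669 tested genes at day 7 (10.4%), of which 617 (5.29%) were higher and 595 (5.1%) were lower in silica. A gene was called when edgeR's quasi-likelihood test gave a Benjamini-Hochberg adjusted p below 0.05, and only called genes are described as higher or lower. A change of 2-fold or more was reached by 258 of the higher and 202 of the lower genes, and the median log2 fold change of all tested genes was 0.01. The libraries of the 2 groups did not overlap in 25.7% of tested genes. Leaving out bleomycin replicate 1 left 877 called genes. Unless another comparison is named, the value given with a gene is the log2 fold change of silica over bleomycin ± SE (n = 3 libraries per group). The SE is the absolute log2 fold change divided by the square root of the test's F statistic, in 1 model of all 21 libraries.

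**Figure D1:**
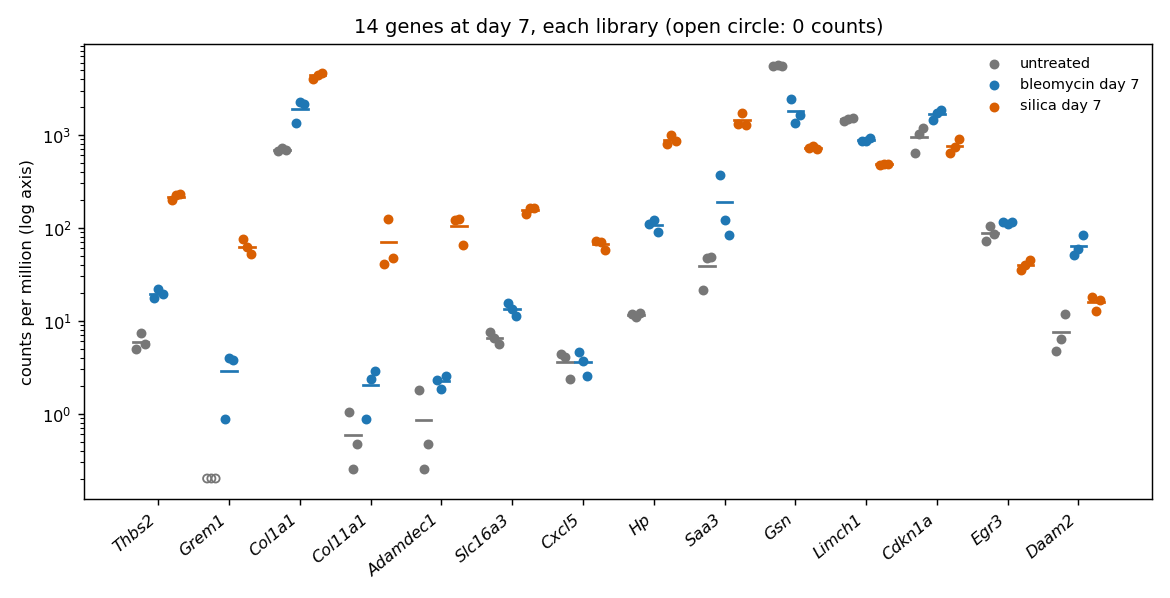
Level of 14 genes in each of the 3 untreated, 3 bleomycin day 7 and 3 silica day 7 libraries in CPM on a log axis, with bars at the group means and open circles for libraries with 0 counts. From Thbs2 to Saa3 every silica library lies above every bleomycin library, and from Gsn to Daam2 every silica library lies below.

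Matrix genes differed by group. Fibrillar collagen chains, which assemble into the tensile fibres of scar tissue, were higher in silica for 8 of 10 tested members, and the other 2 were not called, with a median log2 fold change of 0.85 against 0.01 over all genes. Col1a1, the main chain of type I collagen, was at 1349, 2259 and 2142 CPM in the bleomycin libraries and 4012, 4454 and 4669 CPM in the silica libraries, against 666, 719 and 681 CPM in untreated lungs. The lowest silica library was above the highest bleomycin library, and the difference was 1.19 ± 0.13 (edgeR quasi-likelihood test, adjusted p = 1.22e-07). Its partner chain Col1a2, the gene whose promoter drives the sorting transgene, differed by 0.83 ± 0.10, and the type V chains that nucleate collagen fibrils differed by 0.87 ± 0.13 for Col5a1 and 1.49 ± 0.22 for Col5a3. Col3a1 (0.41 ± 0.12) and Col5a2 (0.51 ± 0.14) were also higher, but their calls were lost without bleomycin replicate 1 (adjusted p = 0.134 and 0.167 in edgeR), and without that library 6 of the 10 chains were called. The Col3a1 call was also lost without bleomycin replicate 3, silica replicate 1 or silica replicate 2 (edgeR adjusted p = 0.0817, 0.0915 and 0.109), and that of Col5a2 without silica replicate 1 or 3 (adjusted p = 0.0641 and 0.0771).

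Col11a1, a minor fibrillar chain best known from cartilage, showed a wider gap. It was at 0.871, 2.38 and 2.85 CPM in the bleomycin libraries, near the untreated level of 1.04, 0.251 and 0.468 CPM, and at 40.4, 124 and 47.6 CPM in silica (5.10 ± 0.64, edgeR adjusted p = 9.31e-07). All 3 silica libraries were far above the bleomycin range, with replicate 2 the highest. Of 17 other interstitial collagens 3 were higher and 4 lower. Col12a1, a fibril-associated collagen, was at 39.5, 67.9 and 57.99 CPM in bleomycin and a narrow 213, 217 and 214 CPM in silica (1.96 ± 0.20). Col28a1, a collagen of the von Willebrand factor A domain family, went the other way, with 16.5, 27.99 and 28.8 CPM in bleomycin and 5.27, 4.52 and 5.32 CPM in silica (-2.27 ± 0.32), and the groups did not overlap.

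Enzymes that process and cross-link collagen were higher for 11 and lower for 2 of 28 tested members (median 0.29). Bmp1, the protease that removes the C-propeptide of procollagen, had 16.5, 29.1 and 18.7 CPM in bleomycin and 69.98, 65.4 and 91.6 CPM in silica (1.81 ± 0.18). The lysyl oxidases, which join collagen molecules covalently, were divided. Loxl2 (1.15 ± 0.13), Loxl3 (0.96 ± 0.28) and Lox (0.65 ± 0.15) were higher, and Loxl1 (-0.45 ± 0.13) was lower. The prolyl hydroxylase subunit P4ha3 differed by 1.28 ± 0.17. Pcolce2, an enhancer of procollagen cleavage that adventitial fibroblasts express, was lower (-1.22 ± 0.16). Without silica replicate 3, 7 of these genes were called higher.

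Matricellular proteins, which sit in the matrix and modulate signals to cells, were divided, with 7 higher and 4 lower of 25 (median 0.18). Thrombospondin 2, encoded by Thbs2, had 17.4, 21.9 and 19.3 CPM in the bleomycin libraries and 197, 223 and 230.1 CPM in the silica libraries, against 4.92, 7.28 and 5.62 CPM in untreated lungs. Within each group the libraries were close together and the groups did not overlap (3.46 ± 0.17, edgeR adjusted p = 3.52e-15). Thrombospondin 1, from the related gene Thbs1, was lower in silica (-0.99 ± 0.13), where its 161, 124 and 117 CPM overlapped the untreated values of 125, 169.8 and 117 CPM. Periostin (Postn), which binds collagen and integrins, differed by 1.68 ± 0.26 and tenascin X (Tnxb) by -1.31 ± 0.29. Other matrix lists were divided as well. Basement membrane genes were higher for 3 and lower for 4 of 19 (median -0.14), with 2 lower without bleomycin replicate 1 or silica replicate 3. Proteoglycan and hyaluronan genes were higher for 3 and lower for 4 of 21 (median -0.01), and elastic fibre genes were higher for 4 and lower for 3 of 17 (median -0.06), with 2 higher without silica replicate 1.

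Several of the best-known fibrosis genes were not called. Osteopontin (Spp1) was at 622, 1004 and 1006 CPM in bleomycin and 1040.1, 776 and 1755 CPM in silica, where the libraries overlapped, against 1.04, 0.754 and 0.936 CPM in untreated lungs (0.44 ± 0.29, edgeR adjusted p = 0.394). With no filter on low counts it was called higher in silica (edgeR adjusted p = 0.00301). Fibronectin (Fn1) gave 0.33 ± 0.15, tenascin C (Tnc) -0.11 ± 0.17, the collagen triple helix repeat protein Cthrc1 0.18 ± 0.28 and the protease inhibitor Timp1 -0.08 ± 0.13, with adjusted p of 0.188, 0.767, 0.774 and 0.794 in edgeR. Elastin (Eln) had -0.46 ± 0.16 (adjusted p = 0.0624) and was lower in silica without bleomycin replicate 1 (-0.69, edgeR adjusted p = 0.000786), with upper quartile scaling (adjusted p = 0.0465) and with no filter on low counts (adjusted p = 0.000224).

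Matrix proteases and their inhibitors were higher for 13 and lower for 5 of 35 (median 0.29), with 3 lower without silica replicate 3. Adamdec1, a secreted metalloprotease of the ADAM family, had 2.32, 1.85 and 2.54 CPM in the bleomycin libraries and 121, 124 and 65.8 CPM in the silica libraries (5.52 ± 0.36, edgeR adjusted p = 2.33e-12). The lowest silica library was well above every bleomycin and untreated library. The membrane-bound collagenase Mmp14, already abundant in untreated lungs at 2429, 2491 and 2536 CPM, rose to 3726, 4125 and 3992 CPM in bleomycin and 7914, 6096 and 6128 CPM in silica (0.77 ± 0.09 between the agents). Adamts16, a metalloprotease with thrombospondin repeats, had 1 count in the 3 bleomycin libraries together and 100 in silica, a ratio of 88.8 with an exact 95% counting interval of 15.6 to 3540.

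A list of genes linked to activated fibroblasts, which shares members with the matrix lists, was higher for 15 and lower for 2 of 25 (median 0.71), and for 8 and 1 without bleomycin replicate 1. Gremlin 1 (Grem1), a secreted antagonist of bone morphogenetic proteins, had 0 counts in the untreated libraries, 0.871, 3.96 and 3.803 CPM in bleomycin and 74.7, 61.4 and 51.6 CPM in silica. Silica libraries were above bleomycin libraries without overlap (4.42 ± 0.33, edgeR adjusted p = 1.09e-10). The transcription factor Prrx1 (0.97 ± 0.12) and the receptor Pdgfrb (1.16 ± 0.18), also a pericyte marker, were higher as well. Smooth muscle actin (Acta2) was higher by 0.71 ± 0.19, a call lost without bleomycin replicate 1, silica replicate 1 or silica replicate 2 (edgeR adjusted p = 0.134, 0.06 and 0.0507). Among 17 contractile genes 4 were higher and 2 lower, one of them the actin-binding Tagln (-0.76 ± 0.23), whose bleomycin and silica libraries overlapped. The Tagln call was lost in DESeq2 (adjusted p = 0.0947), with the 6 libraries alone (edgeR adjusted p = 0.102) and without bleomycin replicate 2 or 3 or silica replicate 2 or 3 (adjusted p = 0.117 to 0.189). The 4 contractile genes became 2 without bleomycin replicate 1 or silica replicate 1. The 9 tested pericyte and smooth muscle markers summed to 228 to 304 CPM in bleomycin and 376 to 389 CPM in silica. Of these markers 4 were higher, the others not called, and 2 were higher without bleomycin replicate 1 or 3 or silica replicate 2. Their part in the differences of Pdgfrb and Acta2 was not tested.

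Secreted signals also differed. Of 18 chemokines tested 8 were higher and 2 lower in silica (median 0.70), and 5 were higher without bleomycin replicate 3. Cxcl5, which recruits neutrophils, was at 4.64, 3.697 and 2.54 CPM in bleomycin, at the untreated level of 4.403, 4.02 and 2.34 CPM, and at 72.5, 70.7 and 58.2 CPM in silica (4.19 ± 0.23, edgeR adjusted p = 2.84e-14). The 3 silica libraries lay close together and apart from all 6 others. The neutrophil chemokines Cxcl2 (1.34 ± 0.23) and Cxcl3 (1.33 ± 0.23), the interferon-induced T cell chemokine Cxcl9 (2.61 ± 0.30) and the CXCR4 ligand Cxcl12 (1.06 ± 0.14) were higher too. The monocyte chemokine Ccl2 was higher by 0.59 ± 0.18, with overlapping libraries, and the call was lost with the 6 libraries alone (edgeR adjusted p = 0.1001) and without bleomycin replicate 2 or 3 or silica replicate 2 or 3 (adjusted p = 0.0525 to 0.245).

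Among 32 cytokine, acute-phase and NF-kB genes 9 were higher and 5 lower (median 0.27), and 3 were lower without bleomycin replicate 3 or silica replicate 2 or 3. Haptoglobin (Hp), which binds free haemoglobin, was at 109, 123 and 89.7 CPM in the bleomycin libraries and 802, 987 and 867 CPM in the silica libraries, and at 11.7, 11.1 and 12.2 CPM in untreated lungs. The 3 groups did not overlap, and silica exceeded bleomycin by 3.05 ± 0.16 (edgeR adjusted p = 1.57e-14). Serum amyloid A3 (Saa3) had 365, 120.4 and 83.98 CPM in bleomycin, where replicate 1 was the highest, and 1313, 1711 and 1286 CPM in silica (2.92 ± 0.34). The neutrophil growth factor Csf3 (2.996 ± 0.43), the siderophore-binding protein Lcn2 (1.52 ± 0.22) and, from the antioxidant list, mitochondrial superoxide dismutase Sod2 (1.26 ± 0.13) were higher. Csf2, the granulocyte-macrophage growth factor, was lower, with 6.09, 7.13 and 5.39 CPM in bleomycin and 2.76, 0.531 and 1.52 CPM in silica (-1.92 ± 0.46), as was the macrophage growth factor Csf1 (-0.54 ± 0.12). Il6 was not called (-0.15 ± 0.19, edgeR adjusted p = 0.699).

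Growth factors that act on neighbouring cells went both ways, with 8 higher and 6 lower of 26. Those higher became 5 without bleomycin replicate 1 or silica replicate 1, and those lower became 3 without silica replicate 3. Neuregulin 1 (Nrg1), an ERBB ligand, was at 3.19, 4.75 and 4.12 CPM in bleomycin and 28.3, 22.6 and 17.97 CPM in silica (2.50 ± 0.25). Fgf2 was the reverse, at 431, 434 and 466 CPM in bleomycin and 206, 239 and 249 CPM in silica, the latter within or close to the untreated range of 196, 237 and 229 CPM (-0.94 ± 0.10). In the Wnt pathway 2 genes were higher and 2 lower of 28, so 14.3% were called, near the 10.4% of all tested genes. Among them were the Wnt amplifier Rspo3 (2.96 ± 0.23) and the alveolar ligand Wnt2 (-1.99 ± 0.28). Igfbp3, which binds insulin-like growth factors, fell from 229, 196 and 201 CPM in untreated lungs to 23.2, 13.2 and 9.82 CPM in bleomycin but stood at 158, 126 and 91.6 CPM in silica (3.02 ± 0.23). The imprinted non-coding RNA H19 was higher in silica (2.18 ± 0.23). The TNF receptor family member Tnfrsf9 (4-1BB) was at 0, 0.792 and 0.951 CPM in bleomycin and 29.6, 51.5 and 32.7 CPM in silica (5.95 ± 0.51), and the osteoclast factor Tnfsf11 (RANKL) and the death receptor Tnfrsf21 gave 4.68 ± 0.63 and 3.69 ± 0.31.

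Glycolysis and hypoxia genes were higher in silica for 13 of 25, with the other 12 not called (median 0.53), and the count was 10 without bleomycin replicate 1. Slc16a3, the transporter that exports lactate from glycolytic cells, had 15.4, 13.5 and 11.1 CPM in the bleomycin libraries and 140.5, 162 and 165 CPM in the silica libraries, against 7.51, 6.53 and 5.62 CPM in untreated lungs. The silica libraries stood apart from all others (3.54 ± 0.17, edgeR adjusted p = 2.18e-15). The related transporter Slc16a1 (1.54 ± 0.14), the stress-induced gene Ndrg1 (1.27 ± 0.16) and the glycolytic enzymes Pfkl (1.06 ± 0.15), Pkm (0.81 ± 0.13) and Pgk1 (1.03 ± 0.22) were higher by less. Ddit4, an inhibitor of mTORC1 that hypoxia and glucocorticoids induce and that was counted in another list, was higher by 2.35 ± 0.23.

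The promoters of 3 of these genes, whose products act in glycolysis or carry its end product lactate across the membrane, are printed as examples. Each is the RefSeq stretch of 250 bases before the start site on build GRCm38.p6, read 5′ to 3′ on the gene's strand. Capitals mark the core letters of the hypoxia response motif, ACGTG or GCGTG on either strand.
Slc16a3: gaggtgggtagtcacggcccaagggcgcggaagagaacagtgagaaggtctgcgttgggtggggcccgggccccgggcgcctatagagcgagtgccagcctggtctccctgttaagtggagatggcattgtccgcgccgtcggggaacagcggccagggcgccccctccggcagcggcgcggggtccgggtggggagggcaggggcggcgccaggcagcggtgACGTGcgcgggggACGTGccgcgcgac
Slc16a1: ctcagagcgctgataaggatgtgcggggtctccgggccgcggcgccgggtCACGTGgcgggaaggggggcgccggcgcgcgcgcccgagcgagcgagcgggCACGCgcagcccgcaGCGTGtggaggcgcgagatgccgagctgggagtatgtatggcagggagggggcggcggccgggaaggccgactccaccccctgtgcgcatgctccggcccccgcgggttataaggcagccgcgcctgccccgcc
Pgk1: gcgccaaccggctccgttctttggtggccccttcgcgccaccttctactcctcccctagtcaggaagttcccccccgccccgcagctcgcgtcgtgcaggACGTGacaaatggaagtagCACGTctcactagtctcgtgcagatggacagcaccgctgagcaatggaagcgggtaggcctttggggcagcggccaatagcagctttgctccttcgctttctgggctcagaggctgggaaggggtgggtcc
They lie at chr11:120948817-120949066, chr3:104638414-104638663 and chrX:106186850-106187099, all on the plus strand. The start site used for Slc16a3 lies downstream of its gene start in GENCODE vM21 (120948480), so that stretch falls within the gene annotated there. These letters occurred in 9 of the 12 called list members with a promoter in the table (75%), in 9 of the 11 members not called (81.8%), in 57.4% of the 8398 tested genes with a promoter and in 38.6% of all 27025 promoters of this length. A match is a description of the sequence, and these 5-letter words are common. The 3 printed promoters all carry the letters, while that of Pkm, also a called gene of glycolysis, has 0 matches.

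Targets of the liver X receptors, which sense oxysterols and drive cholesterol export, were higher for 5 of 12, with the other 7 not called (median 0.37). The exporter Abca1 had 51.7, 41.5 and 45.00 CPM in bleomycin and 106, 100.4 and 92.1 CPM in silica (1.11 ± 0.14), and the phospholipid transfer protein Pltp differed by 1.14 ± 0.21. Without bleomycin replicate 1 or 2 or silica replicate 3 the count was 3. Cytosolic ribosomal proteins were higher for 15 of 75, with the other 60 not called (median 0.26), with Rpl41 (0.49 ± 0.11) among them, and for 7 without bleomycin replicate 1, 8 without silica replicate 2 and 6 without silica replicate 3.

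**Figure D2:**
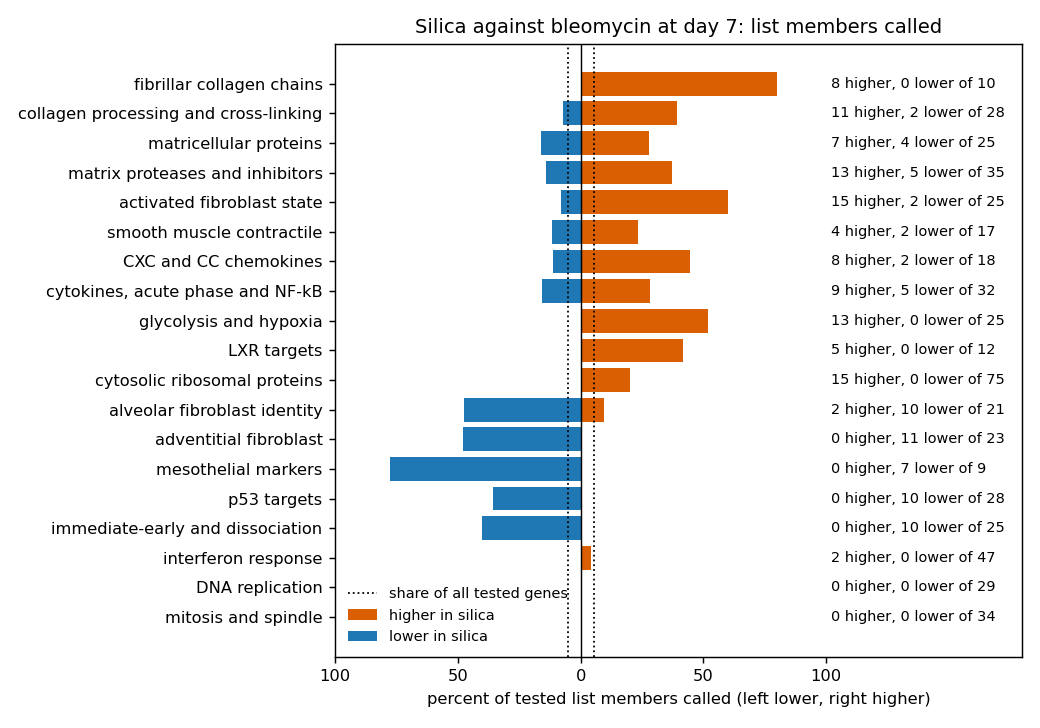
Percent of tested members of 19 gene lists that were called higher (right) or lower (left) in silica than in bleomycin at day 7, with the counts at the right and dotted lines at the share of all tested genes (5.29% higher and 5.1% lower). Fibrillar collagens (8 of 10) and activated-state genes (15 of 25) reach furthest to the right, and mesothelial markers (7 of 9) furthest to the left.

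The genes lower in silica included markers of resting fibroblasts. Of 21 tested alveolar fibroblast genes 10 were lower and 2 higher (median -0.58). Limch1, a regulator of nonmuscle myosin, had 1398, 1495 and 1506 CPM in untreated lungs, 859, 859 and 928 CPM in bleomycin and 475, 486 and 491 CPM in silica. The 3 groups were separate and tight, and silica was below bleomycin (-0.87 ± 0.09, edgeR adjusted p = 3.65e-08). Nephronectin (Npnt), the ligand of integrin α8, was at 1289, 836 and 939 CPM in bleomycin and 511, 517 and 406 CPM in silica (-1.09 ± 0.14), and its receptor chain Itga8 (-0.67 ± 0.11) and the methyltransferase Inmt (-1.26 ± 0.24) were lower too. The lung mesenchyme factor Tcf21 was not called (-0.19 ± 0.15, edgeR adjusted p = 0.508), and neither was lipoprotein lipase Lpl (-0.46 ± 0.18, adjusted p = 0.113). Lpl was called lower without bleomycin replicate 1 (-0.65, edgeR adjusted p = 0.0238), with no filter on low counts (adjusted p = 0.000525) and with the 6 libraries alone (adjusted p = 0.0462).

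Adventitial fibroblast genes were lower for 11 of 23, with the other 12 not called (median -0.76). Gelsolin (Gsn), an actin-severing protein, had 5507, 5690.1 and 5486 CPM in untreated lungs, 2405, 1331 and 1652 CPM in bleomycin and 714, 758 and 704 CPM in silica. Every silica library was below every bleomycin library, and bleomycin replicate 1 was the highest of its group (-1.31 ± 0.16, edgeR adjusted p = 9.43e-07). Igfbp6 (-1.38 ± 0.16), the progenitor marker Cd34 (-1.16 ± 0.14) and the peptidase inhibitor Pi16 (-0.83 ± 0.18) were lower as well. In sorted cells analysed in bulk, fewer cells of a type and less RNA per cell cannot be told apart.

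Mesothelial markers, from the cells that line the lung surface, were lower in silica for 7 of 9 tested, with the other 2 not called (median -1.49). The 9 tested markers summed to 661 to 876 CPM in untreated, 456 to 683 CPM in bleomycin and 195 to 296 CPM in silica libraries. None of the 11 markers in the files was at 0 in all 6. Mesothelin (Msln) had 42.7, 41.5 and 21.2 CPM in bleomycin and 14.05, 10.1 and 11.1 CPM in silica, and keratin 19 (Krt19) had 113, 86.4 and 48.5 CPM in bleomycin and 36.9, 25.5 and 22.5 CPM in silica. The class II antigen gene H2-Eb1, which leukocytes and some other lung cells express, was also lower, at 61.2, 71.3 and 131 CPM in bleomycin and 24.3, 22.3 and 14.4 CPM in silica (-2.10 ± 0.27). The 6 tested endothelial markers summed to 43.8 to 54.3 CPM in bleomycin and 21.5 to 36.9 CPM in silica. The part of these cells in the lower alveolar and adventitial levels was not tested.

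Targets of p53, the factor that DNA damage activates, were lower in silica for 10 of 28, with the other 18 not called (median -0.30). The cell cycle inhibitor Cdkn1a (p21) had 642, 1031 and 1178 CPM in untreated lungs, 1459, 1729 and 1845 CPM in bleomycin and 631, 734 and 911 CPM in silica. The bleomycin libraries were above all 6 others, and the silica libraries were within the untreated range or just below it (-1.14 ± 0.15, edgeR adjusted p = 1.59e-06). The receptor Eda2r (-0.96 ± 0.17) and the kinase Plk2 (-0.88 ± 0.13) were lower in silica too. The count was 6 without bleomycin replicate 2 or 3 or silica replicate 2.

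Immediate-early genes, which respond within minutes to growth factors, stress and tissue digestion, were lower for 10 of 25, with the other 15 not called (median -0.39), for 5 without bleomycin replicate 1 and for 6 without bleomycin replicate 3 or silica replicate 3. Egr3 was at 117, 111 and 115 CPM in bleomycin and 34.9, 40.1 and 44.6 CPM in silica, with tight groups (-1.52 ± 0.18), and the stress factor Atf3 was lower by less (-1.26 ± 0.19). The digestion was part of every preparation, and its share in these levels was not tested. Glutathione S-transferase Gsta4, which detoxifies lipid aldehydes, was lower (-1.23 ± 0.20). Other genes far lower in silica were the formin-family Wnt effector Daam2, at 50.8, 59.4 and 82.7 CPM in bleomycin and 18.1, 12.8 and 16.7 CPM in silica (-2.01 ± 0.22), the protease inhibitor Serpini1 (-2.90 ± 0.32) and the lipoxygenase Alox12 (-2.23 ± 0.30).

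Cell division and the interferon response gave few or no calls. Of 29 DNA replication genes and 34 mitosis genes edgeR called 0 in either direction, against 10.4% of all tested genes, with medians of 0.05 and 0.16. At an unadjusted p below 0.05 the quasi-likelihood test gave 0 of the replication genes and 1 of the mitosis genes, against 2638 of all 11669 genes. DESeq2 and limma-voom at an adjusted p below 0.05 gave 0 and 0 replication genes and 0 and 0 mitosis genes. Mki67, a marker of dividing cells, had 11.03, 18.8 and 17.1 CPM in bleomycin and 16.6, 18.9 and 18.5 CPM in silica, against 0.518, 1.26 and 2.81 CPM in untreated lungs (0.20 ± 0.28, edgeR adjusted p = 0.745), and the topoisomerase Top2a gave 0.40 ± 0.25 (adjusted p = 0.382). Of 47 interferon-response genes 2 were higher (4.26%, near the 5.29% of all tested genes) and the other 45 were not called. Leaving out a silica library or bleomycin replicate 2 or 3 gave 0 to 5 higher (5 without silica replicate 1 and 0 without silica replicate 3). Isg15 was at 361, 184 and 118 CPM in bleomycin, with the highest value in replicate 1, and 175, 277 and 295 CPM in silica. Without bleomycin replicate 1, 14 of the 47 were higher and 1 lower, while 433 of all tested genes were higher and 444 lower. Isg15 then differed by 0.72 (edgeR adjusted p = 0.033).

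Setting both agents beside untreated lungs placed these differences. At day 7, 3685 genes (31.6%) were called in bleomycin and 5142 (44.1%) in silica against the same 3 untreated libraries, so the 2 comparisons are not independent. No dose or volume is stated for the untreated mice, so agent and instillation cannot be told apart in these 2 comparisons. Fibrillar collagens had a median log2 change of 1.41 in bleomycin and 2.44 in silica, and activated-state genes 2.66 and 3.59. Alveolar genes stood at -0.73 and -1.49, and adventitial genes at -0.06 and -1.0. Of the 23 adventitial genes 9 were lower and 4 higher in bleomycin, where 14.9% and 16.7% of all genes were. In silica 16 were lower and 3 higher, against 20.6% and 23.4% of all genes. Their summed level had a median of 12962 CPM in untreated, 4602 CPM in bleomycin and 2261 CPM in silica libraries. Mitosis genes stood at 3.59 and 3.74. For p53 targets the medians were 0.34 and 0.02. Of the 28 targets 10 were higher and 5 lower in bleomycin, against 16.7% and 14.9% of all genes. In silica 8 were higher and 9 lower, against 23.4% and 20.6%. Their summed level had a median of 5265 CPM in untreated, 5551 CPM in bleomycin and 3619 CPM in silica libraries. Cdkn1a alone gave 0.82 ± 0.15 in bleomycin (edgeR adjusted p = 5.61e-05) and -0.32 ± 0.15 in silica (adjusted p = 0.0744). Fgf2 rose by 1.01 ± 0.10 in bleomycin, and its value in silica was 0.07 ± 0.10 (adjusted p = 0.625). Slc16a3 rose in both, by 0.99 ± 0.23 and 4.53 ± 0.19.

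The genes called at day 7 were followed to the same comparison at day 14 and day 63, which used other libraries. Of the 617 genes higher in silica at day 7, 101 (16.4%) were higher at day 14, where 9.06% of all genes were, and 148 (24%) were lower, where 8.03% of all genes were. This order depended on single libraries. Without bleomycin day 7 replicate 1, 433 genes were higher at day 7, of which 117 were higher and 98 lower at day 14. Without silica day 14 replicate 3 the counts were 110 higher and 107 lower. Of the 595 lower genes 76 (12.8%) were lower and 214 (36%) were higher at day 14. At day 63, 313 of the 617 (50.7%) were higher, where 9.13% of all genes were, and 3 were lower. Of the 595, 244 (41%) were lower at day 63, where 6.44% of all genes were, and 25 were higher. The change of the difference from day 7 to day 14, tested as an interaction of agent and day, was called in 2242 genes (19.2%), upward in 1137 (9.74%) and downward in 1105 (9.47%). Seen from the later days, the shared genes were 9.56% of those higher and 8.11% of those lower at day 14, and 29.4% and 32.5% at day 63. Of all tested genes, 5.29% were higher and 5.1% lower at day 7.

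**Figure D3:**
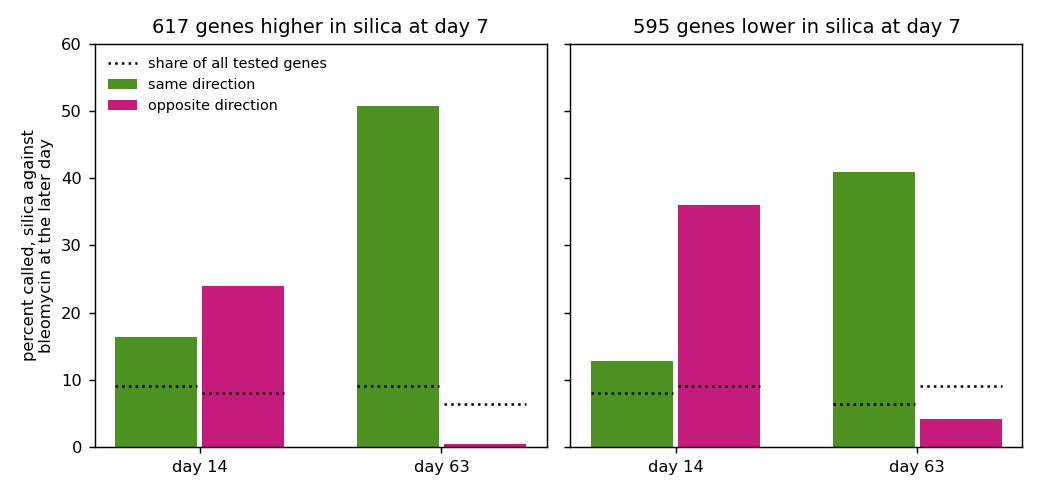
Percent of the 617 genes higher (left) and 595 genes lower (right) in silica than in bleomycin at day 7 that were called in the same or the opposite direction at day 14 and day 63, with dotted lines at the share of all tested genes. At day 14 the opposite direction holds 24% and 36% and the same direction 16.4% and 12.8%, and at day 63 the same direction holds 50.7% and 41%. For the higher genes at day 14, the same direction holds more than the opposite without bleomycin day 7 replicate 1 or silica day 14 replicate 3.

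The Col1a1 difference changed sign at day 14 and again at day 63. Its mean level was 1917 ± 495 in bleomycin and 4378 ± 335 in silica at day 7, 3562 ± 345 and 2293 ± 367 at day 14, and 565 ± 52.96 and 1228 ± 24.3 CPM at day 63 (mean ± SD, n = 3). The log2 difference of silica over bleomycin was -0.64 ± 0.13 at day 14 and 1.12 ± 0.13 at day 63. Gsn took the opposite signs, with differences of 1.95 ± 0.17 at day 14 and -1.22 ± 0.16 at day 63, as did Npnt, with 1.03 ± 0.14 and -1.004 ± 0.14. Of the inflammatory genes, Hp was higher in silica by 0.91 ± 0.15 at day 14 and 4.47 ± 0.18 at day 63, Saa3 by 2.72 ± 0.35 and 5.94 ± 0.43, and Cxcl5 by 5.24 ± 0.33 and 6.12 ± 0.34. Slc16a3 was at 15.7 ± 4.13 CPM in bleomycin and 22.04 ± 2.88 CPM in silica at day 14 and was called at neither later day (edgeR adjusted p = 0.0676 and 0.0949).

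**Figure D4:**
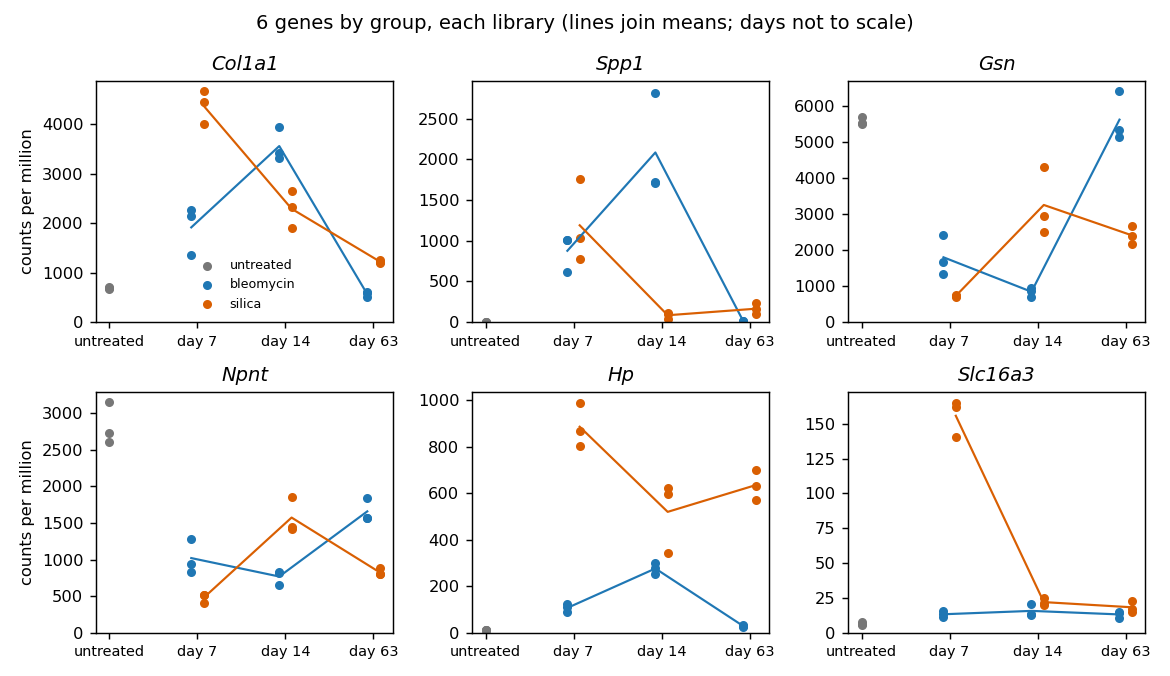
Level of 6 genes in CPM in each library of the 7 groups, with lines through the means of each agent and days spaced evenly, not to scale. Col1a1 is higher in silica at day 7 and 63 and lower at day 14, Gsn and Npnt show the reverse, Spp1 separates at day 14 and not at day 7, Hp stays higher in silica, and Slc16a3 is high in silica at day 7.

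On the mm10 build, in GENCODE vM21, 8 of the genes shown by library lay at chromosome 17 14665500 to 14694235 (Thbs2), chromosome 11 120948480 to 120960868 (Slc16a3), chromosome 14 68563380 to 68582095 (Adamdec1), chromosome 2 113746164 to 113758646 (Grem1), chromosome 5 90759360 to 90761624 (Cxcl5), chromosome 8 109575128 to 109579172 (Hp), chromosome 5 66745827 to 67057158 (Limch1) and chromosome 2 35256380 to 35307892 (Gsn). All are annotated as protein-coding, and values are for the whole gene symbol, since the files do not say which 3′ end a tag came from.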

How the data were processed

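RNA of 21 libraries was deposited by the authors as raw counts of each gene symbol, without normalization. Per the submitters' processing notes, Bowtie2 2.2.5 and mm10 were used. The annotation, the counting program and the strand setting were not given in the sources used here, so genes that overlap, antisense partners and near-identical copies are uncertain. Of the symbols, 17826 (76.8%) matched GENCODE vM21. In edgeR 4.0.16 (R 4.3.3) genes were filtered with filterByExpr and scaled by TMM, and 1 quasi-likelihood model with 7 groups (14 residual degrees of freedom, biological coefficient of variation 12.0%) gave all contrasts, adjusted over 11669 genes. Libraries were grouped by their titles. Replicate numbers did not pair the samples, and no 2 libraries of any of the 7 groups agreed within sampling noise. The tags carried no molecular identifiers, so the counting interval covers counting error only.

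The members and the 52 gene lists were chosen with earlier results of these data known. The rule named 404 genes: the 15 largest and 15 smallest called changes with at least 10 CPM in the higher group and groups that did not overlap, the 8 members of a list that had the lowest adjusted p, and 35 fixed genes. The genes described were picked from these after their values were seen, and Pdgfra was added as a marker. Loxl1 and Loxl3 were added to describe the lysyl oxidases and were not followed over the alternatives. A few genes that the rule names are not reported here. Alternatives were DESeq2 1.42.0, limma-voom 3.58.1, other scalings and filters, a replicate block, a test of a fold change over 1.5, and leaving out each library. The steps were tested on simulated data.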

Additional observations from a re-analysis of the deposited data

Results flagged for a closer look

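Of 34 of the 35 fixed genes, 27 had a difference between silica and bleomycin that changed from day 7 to day 14, by edgeR's quasi-likelihood test of the interaction. The value given is the log2 difference at day 14 minus that at day 7, and a negative value means that silica lost ground to bleomycin. Matrix genes all had negative values, with Col1a1 (-1.83), Col1a2 (-1.44), Col3a1 (-0.69), Fn1 (-2.22), Postn (-3.17), Spp1 (-5.07), Tnc (-1.48), Thbs2 (-3.81), Cthrc1 (-3.90), Timp1 (-0.69) and Lox (-1.58). Further negative values were found for Grem1 (-3.71), Acta2 (-1.96), Cxcl12 (-1.33), Slc16a3 (-3.04), H19 (-3.90), Lpl (-1.11), Top2a (-2.10) and Mki67 (-2.47). Of the genes described with resting fibroblasts, Npnt (2.13), Inmt (3.04), Itga8 (1.28), Tcf21 (0.85) and Gsn (3.26) had positive values. Lpl (-1.11), described with them, went the other way. The interferon-induced gene Isg15 and p53 targets were positive too, with Isg15 (2.19), Cdkn1a (0.86) and Eda2r (1.40). Of the genes that were not called between the agents at day 7, Spp1 and Cthrc1 had the most negative values. The day 7 libraries enter both this test and the comparison at day 7. The causes were not tested.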

How the results depend on the processing

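The day 7 count of 1212 genes was 1223 with DESeq2 size factors or upper quartile scaling, 1087 in DESeq2, 1165 in limma-voom, 1340 without a filter on low counts and 1038 with the 6 libraries fitted alone. Which direction held more genes depended on the processing. The main fit gave 617 higher and 595 lower and limma-voom 601 and 564. Upper quartile scaling gave 544 and 679, DESeq2 512 and 575, and the stricter filter 545 and 621. A test of a fold change over 1.5 left 246 genes, 150 higher and 96 lower in silica. Leaving out 1 library at a time gave 842 to 1133 genes. The counts of genes higher at day 7 and lower at day 14 ranged from 98 to 145 over the libraries left out, and the lowest came without bleomycin day 7 replicate 1. The alternatives for these counts over later days were chosen after seeing the data. With the replicate number as a block, which the design does not ask for (correlations of same-numbered deviations 0.062, -0.011 and 0.034), 1172 genes were called. Of 99 genes followed, 86 kept their direction and their side of the threshold under every alternative in which they were tested. These do not include the test of a fold change over 1.5, and 3 of the genes were not tested with the stricter filter. 5 genes that were not called changed sign when 1 library was left out, with ranges of -0.18 to 0.42 for Cthrc1, -0.0022 to 0.35 for Mki67, -0.296 to 0.0386 for Tnc, -0.13 to 0.72 for Isg15 and -0.0629 to 0.0217 for Pdgfra. The causes were not tested. Genes with few counts, such as Tnfsf11 and Adamts16, have wide errors.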

Other observations

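Genes of the circadian clock, which were not described above, differed at day 7 in 4 of 14 tested members. The repressor Nr1d1, which also stands in the LXR target list, had 2.902, 3.697 and 4.44 CPM in bleomycin and 7.27, 19.1 and 28.1 CPM in silica (2.30 ± 0.45, edgeR quasi-likelihood test, adjusted p = 0.000683), and its relative Nr1d2 differed by 1.32 ± 0.29. The output factor Hlf was lower in silica, at 29.3, 23.8 and 23.8 CPM in bleomycin and 9.03, 8.502 and 12.7 CPM in silica (-1.34 ± 0.21), and so was Rora (-0.50 ± 0.10). The hour at which lungs were taken was not given in the sources used here. The silica libraries differed from each other in Nr1d1, with replicate 1 the lowest.

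Transcription factors of the lung mesenchyme were lower in silica for 6 and higher for 1 of 23 tested. The one that was higher was Tbx3, a T-box repressor, at 62.1, 66.6 and 64.97 CPM in bleomycin and 163, 157 and 154 CPM in silica (1.29 ± 0.10). Hoxa5, a patterning factor of the lung, had 56.9, 42.8 and 66.2 CPM in bleomycin and 28.8, 24.4 and 23.5 CPM in silica (-1.10 ± 0.16), and the groups did not overlap. Lysosomal genes were higher for 8 and lower for 2 of 35, with 5 higher without bleomycin replicate 3 or silica replicate 1 or 2, and Gpnmb, a glycoprotein of stressed lysosomes, was the one with the smallest adjusted p, at 2.61, 3.17 and 4.12 CPM in bleomycin and 11.3, 8.77 and 11.4 CPM in silica (1.67 ± 0.28).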
